A study of Mus musculus with 18 samples.

Results

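The 9 genes described here, Ms4a1, Fcer2a, Cr2, Ltb, Fcrl1, Tnfrsf13c, Cd55, Cd40 and Klf2, are surface, cytokine and transcription factor genes of mature B cells, the kind that leaves the spleen and lymph nodes and returns to the bone marrow through the blood. They were taken by name from the count tables, where each had 1 row in both tables, out of 25965 rows in all. The data were gene counts from 18 RNA sequencing libraries, and each library had its own animal number. CD45.2+ B220+ Mac1- cells, a sort meant for B cells, came from the femurs of C57BL/6 mice aged 12 to 16 months. All groups, controls included, carried 1 copy of a Vav-Cre transgene (Vav.Cre[T/+]), which is active throughout blood-forming cells and their descendants. The controls were heterozygous for a deleted allele of Smchd1 (Smchd1[del/+]), and the other groups had both alleles deleted (Smchd1[del/del]), so that no group had 2 intact alleles. Females gave 5 heterozygous and 5 del/del libraries, and males gave 4 and 4. SMCHD1 is a chromatin protein known for its part in gene silencing and X inactivation.

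B cells are made in the marrow, where pro-B and pre-B cells rearrange their antibody genes and divide. Newly made cells leave as immature B cells and finish maturing in the spleen, and mature cells then circulate and can lodge in the marrow again. Along this path cells stop dividing and gain the complement receptor CR2, the IgE receptor CD23 (Fcer2a) and the receptor for the survival factor BAFF (Tnfrsf13c). B220 marks precursors as well as mature B cells, and also plasmacytoid dendritic cells, so the sort could hold all of these. In such bulk samples, fewer cells of a type and less RNA per cell cannot be told apart.

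The libraries held 9788112 to 29405395 counts each. In females Smchd1 was at 248 ± 17.4 CPM (heterozygous) and 141 ± 17.6 CPM (del/del; SD, n = 5 each), and at 298 ± 21.6 and 177 ± 15.7 CPM in males (SD, n = 4 each), with no overlap of the genotypes in either sex. CPM here are counts scaled to a common library size, with TMM factors over all 18 libraries together. Genes listed as markers of the B lineage, such as Cd79a and Pax5, had a mean log2 CPM of 9.74 to 9.97 over 8 genes in every library. That list also holds Ptprc and Cd24a, which are not confined to B cells. Precursor genes were present too, for instance Rag1 (the antibody gene recombinase) at 1191 ± 204 CPM in heterozygous females and 881 ± 116 CPM in heterozygous males. With both alleles deleted, Rag1 shifted by -0.11 log2 units (SE 0.17) in females. In males it shifted by -0.60 (SE 0.19, edgeR unadjusted p = 0.0109, adjusted p = 0.9998). Of 16 pro-B and pre-B genes, 1 shifted upwards in females (median -0.14) and 0 in males (median -0.32). Besides Rag1, the genes Rag2, Dntt, Vpreb3, Kit, Lef1, Sox4, Erg and Arpp21 were lower in males at an unadjusted edgeR p under 0.05. That threshold was passed by 3.34% of all genes in males. In females the smallest unadjusted edgeR p of this list was 0.1145, for Lef1. Of 24 cell cycle genes, 0 shifted upwards in either sex (medians -0.23 and -0.13). None of the genes on these lists passed the edgeR test. The summed level of 15 genes of plasmacytoid dendritic cells was 2994 to 4130 CPM in heterozygous females, 3076 to 4088 CPM in del/del females, and 2531 to 3121 and 2421 to 2871 CPM in males. Spib (1759 ± 193.7 CPM in heterozygous females) and Ly6d (626 ± 55.2 CPM), which B cells express too, make up most of this sum. None of the 15 genes was under 1 CPM in a group mean or passed the edgeR test, but the log2 fold change of del/del against heterozygous libraries was positive for 15 of 15 in females (median 0.40) and 12 of 15 in males (median 0.45). Siglech, a defining gene of these cells, was at 0.40 (SE 0.31) in females and 0.48 (SE 0.24) in males. The smallest adjusted p of the list was that of Il3ra in each sex. Its log2 fold change was 0.51 (SE 0.12, edgeR adjusted p = 0.225) in females and 0.61 (SE 0.12, edgeR adjusted p = 0.216) in males. The summed level of 15 myeloid genes was 1042 to 5906 CPM over the 18 libraries. For 13 T and NK cell genes it was 151 to 292 CPM, and for 13 erythroid entries 614 to 1924 CPM. The erythroid sum holds Hbb-bs and Hbb-bt more than once, since each was also listed under another symbol. Tfrc, a further entry of that list, was at 532 ± 32.2 CPM in heterozygous females.

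None of the 9 genes passed the test for a difference between the genotypes in either sex. In females 0 of 9 passed an adjusted p under 0.05 in edgeR's quasi-likelihood test, where 0.252% of 13501 genes did, and in males 0 of 9, where 0.119% of 13413 genes did. At an unadjusted p under 0.05 there were also 0 of 9 in each sex, a threshold passed by 4.296% of all genes in females and 3.34% in males, so that a count of 0 among 9 genes does not set them apart. DESeq2 and limma voom called 0 of 9 as well. No gene had del/del libraries that all lay above, or all below, the heterozygous ones. Among all genes, the del/del libraries lay wholly above in 0.837% in females and 1.27% in males, and the share wholly below was not counted. The log2 fold changes were positive for 9 of 9 in females, with a median of 0.19, and for 7 of 9 in males, with a median of 0.052. Over all genes tested, 48.8% were positive in females and 50.6% in males, with medians of -0.0044 and 0.0013. The spread between female libraries of 1 genotype was larger than these shifts for most of the genes.

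**Figure D1:**
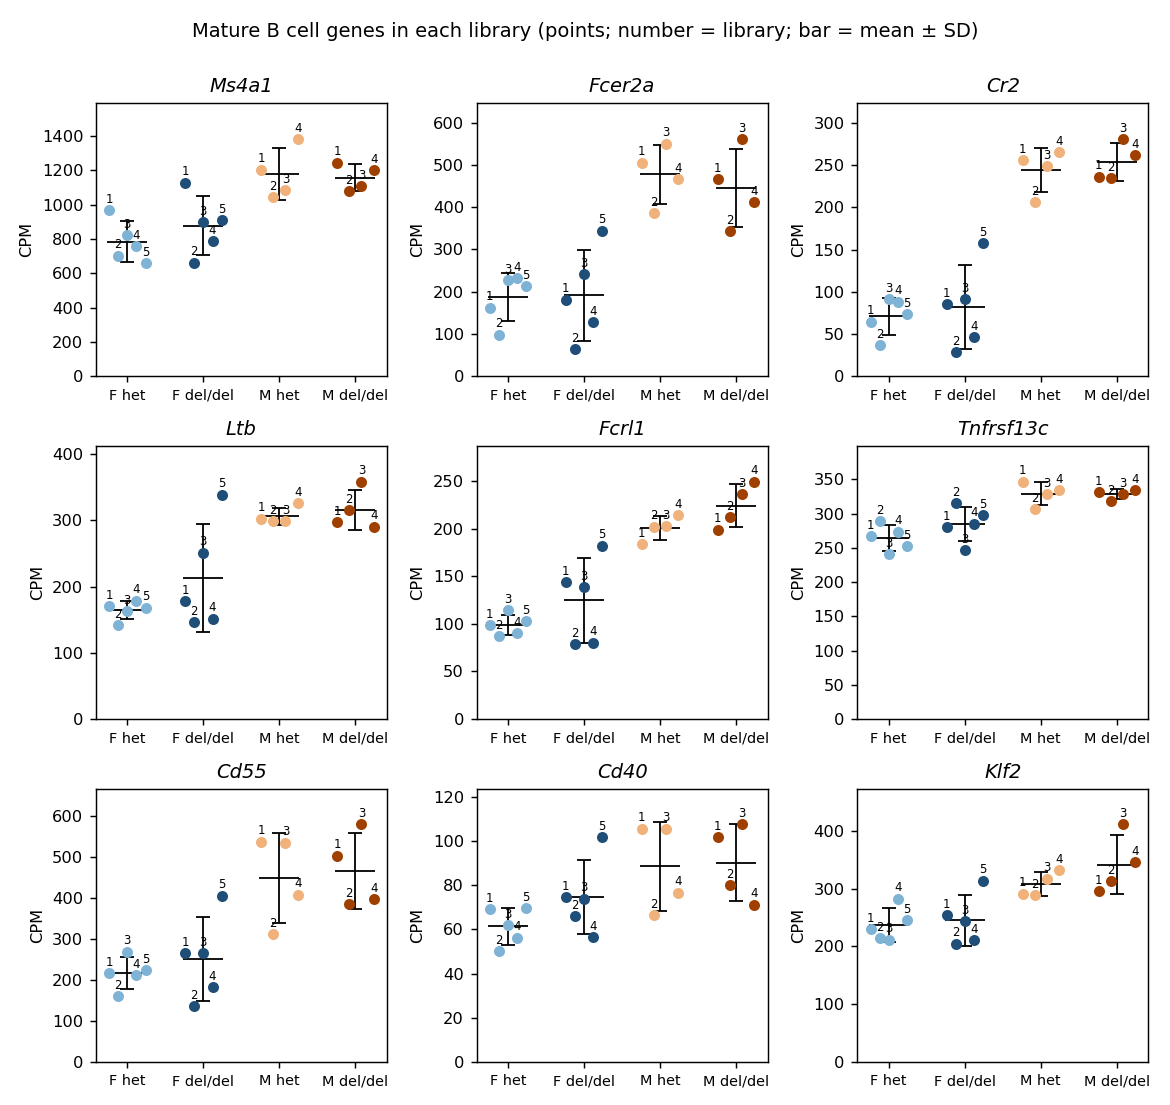
CPM of each of the 9 genes (vertical axis, from 0) in every library, by sex and genotype. Points are libraries with their number, and bars give the mean ± SD. The female del/del libraries had the largest SD for Ms4a1, Fcer2a, Cr2, Ltb, Fcrl1 and Tnfrsf13c, with Cr2 from 28.8 to 158 CPM. For Cd55, Cd40 and Klf2 a male group had a larger SD. In no panel are the genotypes of a sex apart.

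Cr2 (ENSMUSG00000026616, mm10 chromosome 1, 195136811 to 195176715, minus strand) encodes complement receptors that lower the threshold for B cell activation. In heterozygous females it was at 64.7, 37.1, 91.7, 88.4 and 74.0 CPM in libraries 1 to 5, and in del/del females at 85.2, 28.8, 91.3, 46.7 and 158 CPM. Del/del library 5 was the highest and del/del library 2 the lowest of the 10, a 5.47-fold range within 1 genotype, while the heterozygous libraries spanned 2.47-fold. In males Cr2 was at 256, 206, 248.5 and 265 CPM in heterozygous and 236, 235, 281 and 262 CPM in del/del libraries. Every male library was above every female one, and the male genotypes overlapped. The log2 fold change was 0.19 (SE 0.37) in females and 0.067 (SE 0.096) in males, with edgeR adjusted p = 0.975 and 0.9998. An interval of 2 SE on each side ran from -0.55 to 0.93 in females and from -0.12 to 0.26 in males. With this spread, the female libraries leave room for a change in either direction.

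Fcer2a (ENSMUSG00000005540, mm10 chromosome 8, 3681737 to 3694174, minus strand) encodes CD23, the low-affinity IgE receptor of follicular B cells. Its level was 163, 98.5, 228, 232 and 213.5 CPM in heterozygous and 181, 64.7, 241, 127 and 344 CPM in del/del females. The order among del/del females was that of Cr2, with library 5 highest and library 2 lowest, and heterozygous library 2 was again the lowest of its group. Male levels were 505, 386, 550 and 467 CPM in heterozygous and 466, 343, 562 and 413 CPM in del/del libraries, and library 2 was lowest in both male groups. Its log2 fold change was 0.027 (SE 0.36) in females and -0.087 (SE 0.15) in males (edgeR adjusted p = 0.995 and 0.9998). Its sign in females rested on single libraries: it was -0.29 without del/del library 5, -0.12 without heterozygous library 2, -0.076 without del/del library 3 and -0.026 without heterozygous library 1.

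Cd55 (ENSMUSG00000026399, mm10 chromosome 1, 130439027 to 130462744, minus strand) encodes decay-accelerating factor, which protects a cell from complement. It was at 217.1, 160, 269, 211 and 225 CPM in heterozygous females and at 265, 136, 266, 182 and 406 CPM in del/del females. Libraries 2 were again lowest in both genotypes and del/del library 5 highest. In males the values were 538, 313, 535 and 408 CPM in heterozygous and 503, 385, 580 and 397 CPM in del/del libraries, where libraries 1 and 3 were high in both genotypes. Between genotypes the log2 difference was 0.20 (SE 0.23) in females and 0.068 (SE 0.19) in males (edgeR adjusted p = 0.975 and 0.9998). Without female del/del library 5, Cr2 was at -0.19 and Cd55 at -0.036.

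The promoters of these 3 genes and of Ltb are shown as examples of genes that varied together from library to library in females. Ltb was there at Pearson r = 0.866 with Cr2, 0.859 with Fcer2a and 0.866 with Cd55. Fcrl1, whose promoter is not shown, was at 0.890, 0.841 and 0.943. They are RefSeq windows of 300 bases on GRCm38.p6, from 250 bases before to 50 after the start site, on the strand of the gene. Capitals mark a match to a searched motif.
Cr2 (chr1:195176670-195176969, minus strand): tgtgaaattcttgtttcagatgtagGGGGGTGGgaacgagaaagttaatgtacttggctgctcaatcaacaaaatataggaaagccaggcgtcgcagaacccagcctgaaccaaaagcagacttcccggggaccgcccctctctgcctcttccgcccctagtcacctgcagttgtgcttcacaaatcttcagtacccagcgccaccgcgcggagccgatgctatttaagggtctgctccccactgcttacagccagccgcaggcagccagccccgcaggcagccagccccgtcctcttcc
Fcer2a (chr8:3694125-3694424, minus strand): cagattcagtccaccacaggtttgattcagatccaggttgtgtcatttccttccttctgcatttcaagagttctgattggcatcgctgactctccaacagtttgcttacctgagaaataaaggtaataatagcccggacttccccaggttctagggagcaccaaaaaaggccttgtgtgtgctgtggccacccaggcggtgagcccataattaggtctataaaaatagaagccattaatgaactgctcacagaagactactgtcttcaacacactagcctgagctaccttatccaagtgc
Cd55 (chr1:130462695-130462994, minus strand): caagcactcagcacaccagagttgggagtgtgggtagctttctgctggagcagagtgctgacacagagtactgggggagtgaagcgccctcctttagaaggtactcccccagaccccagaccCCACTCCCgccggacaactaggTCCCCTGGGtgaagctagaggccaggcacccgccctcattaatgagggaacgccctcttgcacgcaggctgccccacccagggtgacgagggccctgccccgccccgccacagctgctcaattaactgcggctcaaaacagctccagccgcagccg
Ltb (chr17:35194257-35194556, plus strand): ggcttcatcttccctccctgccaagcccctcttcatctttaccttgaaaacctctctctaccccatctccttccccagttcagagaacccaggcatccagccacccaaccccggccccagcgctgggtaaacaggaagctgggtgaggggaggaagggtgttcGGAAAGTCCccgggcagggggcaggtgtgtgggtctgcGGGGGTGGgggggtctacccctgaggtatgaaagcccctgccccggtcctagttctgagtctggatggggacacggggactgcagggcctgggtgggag
The table held 9 promoters of 7 of the genes, 3 of them for Fcer2a, which has several start sites. Of 5 motifs searched on both strands, the KLF-type CCACNCCC was found in the promoters of Cr2, Cd55 and Ltb, with its first base at -225, -128 and -49 from the start site, and in 17.6% of 32851 promoters. The EBF1-type TCCCNNGGG was found in Cd55 at -106 (6.56% of promoters), and the NF-kB-type GGANNTTCC in Ltb at -87 (4.26%). The PU.1-type GAGGAAGT was found in Fcrl1 alone, at -15 (3.20%), and the octamer ATGCAAAT in 0 of the 7 genes (1.74%). No match overlapped another, and Fcer2a, Tnfrsf13c and Klf2 had no match. A match in these letters is not evidence of a bound site.

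Ltb (ENSMUSG00000024399, mm10 chromosome 17, 35194439 to 35196320, plus strand) encodes lymphotoxin beta, the membrane anchor of a cytokine that B cells use to organise lymphoid tissue. It was at 170.6, 142, 163, 179 and 168 CPM in heterozygous females, a narrow range, and at 178, 147, 252, 152 and 339 CPM in del/del females. Del/del libraries 3 and 5 were above all others, and libraries 1, 2 and 4 lay within the heterozygous range. In males it was at 303, 299, 299 and 326 CPM in heterozygous and 297, 316, 359 and 291 CPM in del/del libraries, which overlapped. The log2 fold change in females was 0.37 (SE 0.20), the largest of the 9, with an unadjusted p of 0.0898 and an edgeR adjusted p of 0.975. It was 0.14 without del/del library 5. In males it was 0.052 (SE 0.080).

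Fcrl1 (ENSMUSG00000059994, mm10 chromosome 3, 87376387 to 87392133, plus strand) encodes an Fc receptor-like protein that acts as a co-receptor on B cells. Heterozygous females had 98.9, 87.3, 114, 90.1 and 102.7 CPM, and del/del females 144, 79.1, 139, 80.2 and 182 CPM. Del/del libraries 1, 3 and 5 were above every heterozygous library and libraries 2 and 4 below every one. Heterozygous males had 184, 202.2, 202.5 and 214.3 CPM and del/del males 199, 212.2, 237 and 249.6 CPM, with overlap in spite of the 2 highest values being del/del. The log2 fold change was 0.33 (SE 0.20) in females and 0.17 (SE 0.085) in males, the latter with an unadjusted p of 0.0746 and an edgeR adjusted p of 0.9998. It was 0.15 in females without del/del library 5 and 0.11 in males without del/del library 4.

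Cd40 (ENSMUSG00000017652, mm10 chromosome 2, 165055627 to 165072948, plus strand) encodes the receptor through which B cells receive help from T cells. Its female levels were 69.3, 50.1, 61.9, 56.3 and 69.7 CPM in heterozygous and 74.7, 66.2, 74.0, 56.6 and 102 CPM in del/del libraries. Del/del libraries 1, 3 and 5 were above all heterozygous ones and library 4 was among the lower ones. Male levels were 106, 66.4, 106 and 76.7 CPM and 102, 80.2, 108 and 71.2 CPM, with libraries 1 and 3 high and libraries 2 and 4 low in both genotypes. Its log2 fold change was 0.27 (SE 0.14) in females, with the smallest unadjusted p of the 9 there, 0.0777, and an edgeR adjusted p of 0.975, and 0.041 (SE 0.18) in males. Without female del/del library 5 the female value was 0.13.

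Tnfrsf13c (ENSMUSG00000068105, mm10 chromosome 15, 82221744 to 82224339, minus strand) encodes the BAFF receptor, through which mature B cells survive, and was the steadiest of the 9. It was at 267, 289, 241, 274 and 252 CPM in heterozygous and 280.3, 315, 246, 285 and 298 CPM in del/del females. Here library 2, low for Cr2 and Fcer2a, was the highest of its group in both genotypes. In males the levels were 347, 307, 328 and 334 CPM and 331, 319, 329 and 335 CPM. Between genotypes the log2 difference was 0.100 (SE 0.085) in females and 0.0076 (SE 0.063) in males (edgeR adjusted p = 0.975 and 0.9998). With 2 SE on each side, its interval ran from -0.069 to 0.27 in females and from -0.12 to 0.13 in males.

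Ms4a1 (ENSMUSG00000024673, mm10 chromosome 19, 11250603 to 11266151, minus strand) encodes CD20, a surface protein already present on late precursors. Its levels were 968, 703, 823, 760.3 and 662 CPM in heterozygous and 1129, 662, 901, 790 and 911 CPM in del/del females. Del/del library 1 was the highest, and the lowest values of both genotypes were level. In males it was at 1204, 1045, 1086 and 1384 CPM and at 1245, 1080, 1106 and 1202 CPM, so the heterozygous libraries held both extremes. The log2 fold change was 0.16 (SE 0.14) in females and -0.017 (SE 0.10) in males (edgeR adjusted p = 0.975 and 0.9998). It was 0.048 in females without del/del library 1.

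Klf2 (ENSMUSG00000055148, mm10 chromosome 8, 72319033 to 72321656, plus strand) encodes a zinc finger factor of quiescent lymphocytes, which acts on homing genes such as S1pr1. It was at 231, 214.2, 211.9, 283 and 246 CPM in heterozygous and 254, 205, 244, 211 and 314 CPM in del/del females. Del/del library 5 was again the highest of the 10 and del/del library 2 the lowest. In males it was at 292, 289, 318 and 332 CPM in heterozygous and 297, 313, 412 and 347 CPM in del/del libraries, where del/del library 3 stood highest. Its log2 fold change was 0.042 (SE 0.12) in females and 0.16 (SE 0.11) in males (edgeR adjusted p = 0.976 and 0.9998), and it was -0.061 in females without del/del library 5 and 0.060 in males without del/del library 3.

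**Figure D2:**
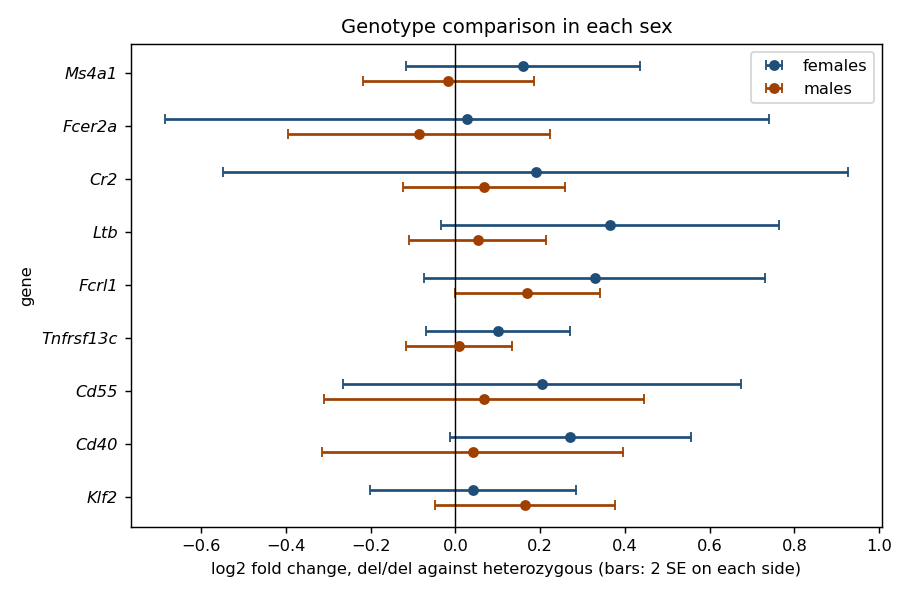
Log2 fold change of del/del against heterozygous libraries for each gene (horizontal axis), fitted with edgeR in females (n = 5 and 5) and males (n = 4 and 4). Bars give 2 SE on each side, and all of them cross 0, narrowly so for Fcrl1 in males and Cd40 in females. The female bars of Fcer2a and Cr2 are the widest.

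The genotype effect did not differ detectably between the sexes. In the interaction of sex and genotype over all 18 libraries, 0 of 9 genes passed the edgeR test (background 0% of 14017 genes), with 0 of 9 at an unadjusted p under 0.05 against 1.45% of all genes. DESeq2 called 4 genes in all and limma voom 0, none of them among the 9. Ltb had the largest difference, 0.33 on the log2 scale (SE 0.25, unadjusted p = 0.209, edgeR adjusted p = 0.9999). In the authors' deposited table, the adjusted p of the 9 genes was 0.976 to 0.999 in females and 0.9998 in males.

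Female libraries of 1 genotype differed by a pattern shared by most of the genes. Against the heterozygous mean of their sex, 9 of 9 genes were higher in female del/del libraries 1 and 5 and 8 of 9 in library 3, but 2 of 9 in libraries 2 and 4. Averaged over the 9 genes, the difference was 0.26, 0.30 and 0.73 log2 units in libraries 1, 3 and 5 and -0.43 and -0.20 in libraries 2 and 4. Among heterozygous females, library 2 was at -0.33 and the other 4 lay between 0.041 and 0.13. Male libraries stayed between -0.20 and 0.22, the lowest being heterozygous library 2 and the highest del/del library 3. The female pattern was not confined to the 9 genes. Deviations of the mean of 23 other mature B cell genes correlated with theirs at Pearson r = 0.986 in females and 0.766 in males. For 11 homing genes and Klf relatives of Klf2 the values were 0.988 and 0.402.

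**Figure D3:**
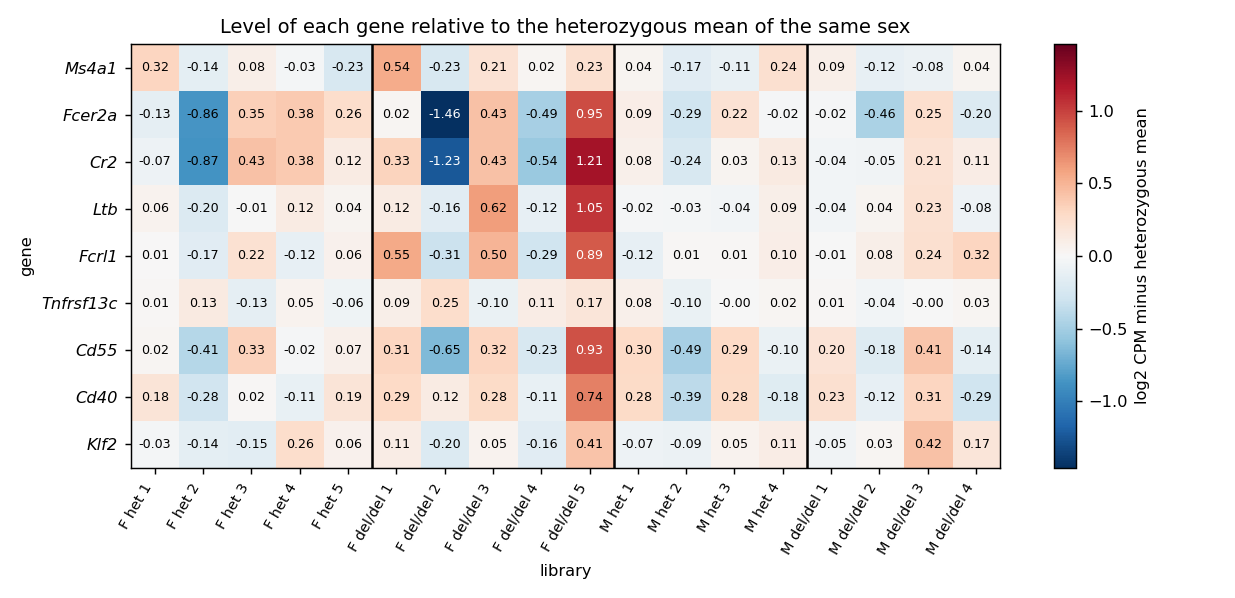
Log2 CPM of each gene (rows) in each library (columns) minus the mean of the heterozygous libraries of the same sex; red is higher and blue lower. Female del/del library 5 is red in all rows, up to 1.21 for Cr2, female del/del library 2 is blue in all rows but Tnfrsf13c and Cd40, and the row of Tnfrsf13c is pale throughout.

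Cr2 and Fcer2a were among the most variable in females of the genes whose log2 CPM averaged 5 or more. Their SD within a genotype was 0.76 and 0.75 on the log2 scale in females, where the median was 0.16 over the 6458 genes whose log2 CPM averaged 5 or more, and they lay at percentiles 99.57 (Fcer2a) and 99.58 (Cr2) of those genes. In males the SD of Cr2 was 0.14 and that of Fcer2a 0.26, with a median of 0.12. Cd55 varied in both sexes, with an SD of 0.47 in females and 0.33 in males. Tnfrsf13c varied less than most genes, with an SD of 0.12 in females and 0.056 in males.

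As a description, deviations from the group mean were compared between genes within each sex. In the 10 female libraries they ran together for Fcer2a and Cr2 (Pearson r = 0.985), Cr2 and Cd55 (0.973), Fcer2a and Cd55 (0.947) and Cr2 and Fcrl1 (0.890). In the 8 male libraries the same pairs were at 0.711, 0.661, 0.915 and 0.423. Ltb was at 0.866 with Cr2 and 0.859 with Fcer2a in females and at 0.514 and 0.404 in males, and Klf2 with Ltb at 0.826 and 0.751. Tnfrsf13c went opposite ways: with Fcer2a and Cr2 it was at -0.574 and -0.501 in females and at 0.562 and 0.755 in males. Ms4a1 was at 0.348 to 0.626 in females with the genes other than Tnfrsf13c, and at 0.00525 to 0.491 in males. The points share libraries, scaling and depth, and their number is small.

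In the female del/del libraries where most of the 9 genes were high, genes of dividing cells were low. The mean log2 CPM of 24 cell cycle genes was 7.36 to 7.71 in heterozygous females, 7.06, 7.28 and 6.84 in del/del libraries 1, 3 and 5, and 7.76 and 7.73 in del/del libraries 2 and 4. The mean of 16 pro-B and pre-B genes was 7.02 to 7.53 in heterozygous females, 7.29, 7.03 and 6.93 in del/del libraries 1, 3 and 5, and 7.34 and 7.62 in 2 and 4. Genes of plasmacytoid dendritic cells moved the other way, at 6.79, 6.94 and 7.02 in del/del libraries 1, 3 and 5 and 6.18 and 5.95 in 2 and 4, against 5.86 to 6.63 in heterozygous females. Malat1, a nuclear RNA whose share can move with RNA quality, had a log2 CPM of 10.48, 10.89 and 10.87 in del/del libraries 1, 3 and 5, 9.87 and 10.27 in 2 and 4, and 9.60 to 10.57 in heterozygous females. With the cell cycle level as a covariate, 3 of 9 genes stayed positive in females and the median was -0.053; with the dendritic cell level it was 5 of 9 and 0.0031, and with Malat1 3 of 9 and -0.031. In males 3 of 9 were positive with either the cell cycle or the dendritic cell level, and 4 of 9 with Malat1. No gene of the 9 was called in any of these fits. Over the female libraries, deviations of the cell cycle and dendritic cell means correlated with those of the 9 genes at Pearson r = -0.878 and 0.651. Both lists also shifted with genotype in females (medians -0.23 and 0.40). These fits therefore cannot separate the covariate from the genotype. The part of myeloid and T cell RNA in the female pattern was not tested, and the means of those lists in female del/del libraries were 4.995 to 6.88 and 2.58 to 3.95 on the log2 CPM scale, lowest in library 2.

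**Figure D4:**
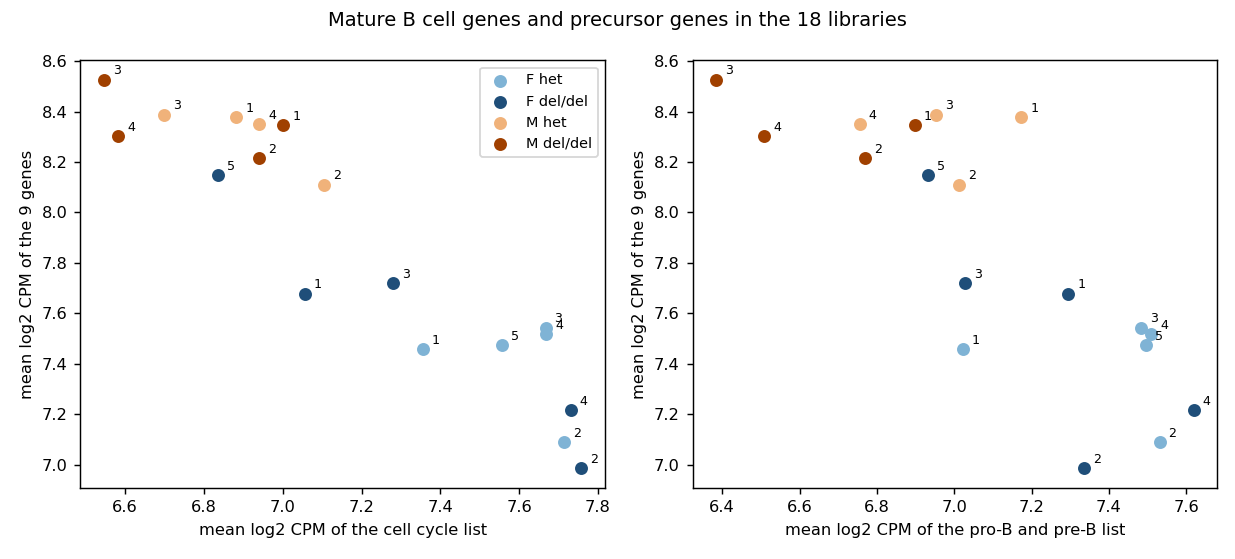
Mean log2 CPM of the 9 genes in each of the 18 libraries (vertical axis) against the mean log2 CPM of 24 cell cycle genes (left) and of 16 pro-B and pre-B genes (right). Female libraries lie at cell cycle levels of 7.06 to 7.76, except del/del library 5 at 6.84, and male libraries at 6.55 to 7.10; numbers name the library.

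Male libraries had higher levels of all 9 genes on average, but the sexes were deposited as separate tables, so sex and table cannot be told apart, and the values are given side by side without a test. The mean over male libraries was 3.25 times the female mean for Cr2, 2.44 times for Fcer2a, 1.96 times for Cd55, 1.90 times for Fcrl1 and 1.65 times for Ltb. For Ms4a1, Klf2, Cd40 and Tnfrsf13c it was 1.41, 1.35, 1.31 and 1.20 times. Cr2 was at 206 to 281 CPM in males and at most 158 CPM in females, and Fcrl1 at 184 to 249.6 CPM against at most 182 CPM, so that for 2 of the 9 genes all male libraries lay above all female ones, as for 4.07% of 14017 genes. The cell cycle mean was 6.55 to 7.10 in males and 6.84 to 7.76 in females, and the pro-B and pre-B mean 6.39 to 7.17 and 6.93 to 7.62. Their part in the difference was not tested.

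Levels can be set against each other between genes only per length, as CPM per kilobase of exon. In heterozygous males Ltb had the highest level, 202.2 ± 8.46 CPM per kilobase (SD, n = 4), followed by Ms4a1 (191 ± 24.6), Klf2 (166.5 ± 11.3), Tnfrsf13c (161 ± 8.09) and Fcer2a (154 ± 22.4), whose spreads meet or overlap from each to the next. Cd55 was at 92.4 ± 22.5, Fcrl1 at 56.4 ± 3.51, Cr2 at 30.0 ± 3.22 and Cd40 at 26.02 ± 5.92 CPM per kilobase, and of these neighbours only Cr2 and Cd40 lay within their spread. In heterozygous females Tnfrsf13c (129 ± 9.16), Klf2 (128 ± 15.7), Ms4a1 (127 ± 19.4) and Ltb (109 ± 9.03) formed the top group (SD, n = 5), and Fcer2a (60.4 ± 18.3), Cd55 (44.6 ± 8.001), Fcrl1 (27.7 ± 3.03), Cd40 (18.04 ± 2.47) and Cr2 (8.78 ± 2.70) followed. Among these, only Fcer2a and Cd55 overlapped in their spread as neighbours. Cr2 was thus the lowest of the 9 per length in females and Cd40 in males. In del/del libraries the 4 genes at the top were also Ms4a1, Ltb, Tnfrsf13c and Klf2, in females at 142 ± 27.9, 141 ± 54.0, 139 ± 12.3 and 133 ± 23.7 CPM per kilobase. Exon lengths were 1516 bases for Ltb to 8112 for Cr2.

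None of the genes listed as partners or relatives of the 9 passed the edgeR test in either sex. Of 23 other surface and nuclear genes of mature B cells, 22 had a positive log2 fold change in females (median 0.16) and 17 in males (median 0.12). Fcgr2b, the inhibitory IgG receptor, had the smallest p of this list in females (log2 0.33, SE 0.12, adjusted p = 0.920), and the survival gene Bcl2 in males (log2 0.26, SE 0.11, adjusted p = 0.9998). The transcription factor gene Pou2f2 was at 0.21 (SE 0.12) and the chemokine receptor gene Ccr6 at 0.57 (SE 0.40) in females. Among ligands, adaptors and NF-kB subunits that act with the BAFF receptor, CD40 and lymphotoxin, 13 of 17 were positive in females (median 0.095) and 15 of 18 in males (median 0.061). Rel, an NF-kB subunit, was at 0.25 (SE 0.12) in females, and the adaptor genes Traf6, Birc3 and Traf1 at -0.17 (SE 0.067), 0.20 (SE 0.097) and 0.28 (SE 0.14) in males.

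Among partners of CR2 and regulators of complement, 7 of 8 were positive in females (median 0.22) and 6 of 9 in males (median 0.17). Cfp, the gene of properdin, was at 0.50 (SE 0.16, adjusted p = 0.641) in females. Cd81, a membrane partner of CR2, was at -0.10 (SE 0.079) in females and -0.0060 (SE 0.074) in males, and the low Cd59a at 0.96 (SE 0.34) in males. Cr1l, the complement regulator gene related to Cr2, lay at 58.1 ± 2.08 and 58.8 ± 4.38 CPM in the female genotypes (SD, n = 5 each), a narrower spread than that of Cr2 (71.2 ± 21.9 and 81.9 ± 49.7 CPM). Reads of Cd55 and its close copy Cd55b may be assigned to either.

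Of the homing genes and Klf relatives of Klf2, 9 of 11 were positive in each sex, with medians of 0.11. S1pr1, a well known target, was at 0.14 (SE 0.22) in females and 0.023 (SE 0.15) in males. The relatives Klf6 and Klf4 were at 0.24 (SE 0.12) and 0.45 (SE 0.24) in males, and Klf3 and Klf7 at 0.19 (SE 0.28) and 0.16 (SE 0.13) in females. In the families of Ms4a1 and Fcrl1, 7 of 9 relatives were positive in females (median 0.16) and 5 of 9 in males (median 0.074). Fcrl5, a receptor of innate-like and memory B cells, was at 0.77 in females (SE 0.28, adjusted p = 0.890), from 5.86 ± 1.90 to 9.99 ± 3.18 CPM. Ms4a6d was at 1.26 (SE 0.49), Ms4a4b at -0.43 (SE 0.19) and Ms4a6b at 0.22 (SE 0.11) in males, all with adjusted p = 0.9998.

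Among 8786 genes ranked, those whose deviation from the group mean was most like that of the mean of the 9 over the 18 libraries were Lta (Pearson r = 0.981), Gimap3 (0.973), Sh3bp2 (0.971), Gimap8 (0.956), Grap2 (0.955) and Icosl (0.951). Lta encodes lymphotoxin alpha, the partner of lymphotoxin beta. Icosl, the ligand gene of the T cell receptor ICOS, was at 96.0 ± 27.01 and 109 ± 67.4 CPM in female heterozygous and del/del libraries, with a larger spread in the latter. The most opposed were Stk4 (-0.935), Polr2g (-0.923), Ctcf (-0.923) and Clint1 (-0.916).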

How the data were processed

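Libraries were made from polyA RNA with an Illumina TruSeq kit, per the labels' protocols. Read counts per gene were deposited by sex, in separate tables. The submitters' processing notes name TopHat, Trim Galore, FastQC, bcl2fastq and edgeR 3.32.1 as tools and mm10 and GRCm38 as builds. The strand setting, counting program and annotation release are not given in the sources used here. Reads of overlapping genes therefore cannot be told apart. Tables of log2 fold changes with p-values and adjusted p-values were also deposited by the authors and are quoted only as theirs. The 2 columns of group means in each table were not used. The 56 rows with no identifier held at most 0.0846% of a library's counts.

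Counts were tested as deposited with edgeR 4.0.16 in R 4.3.3, for each sex apart: filterByExpr (minimum count 10, minimum total count 15), TMM factors, glmQLFit and glmQLFTest, Benjamini-Hochberg adjustment over all genes tested and a threshold of 0.05. The interaction was fitted over all 18 libraries. The SE is the log2 fold change divided by the square root of F. The log2 CPM used a prior count of 2. The tests were tested on simulated data. No 2 libraries of a group agreed within sampling noise. Replicate numbers follow accession order and name a library only. Since nothing but the animal numbers says how the libraries were made, p-values measure the spread between these animals and their preparation. Exon lengths are the union of exons in GENCODE M21. Alternatives were RLE size factors, no filter, DESeq2 1.42.0, limma 3.58.1 voom, all libraries in 1 fit, a block of nearest animal numbers, 3 covariates, and each library left out.

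The 9 genes and the gene lists were chosen with earlier results of these data known. Named were the 9 genes, Smchd1, up to 4 genes of each partner list with the smallest unadjusted p in either sex, and by likeness the 6 highest and 4 lowest genes among those whose log2 CPM averaged 3 or more. Some genes that the rule names are not reported here. Outside the rule, S1pr1, Cr1l, Spib, Ly6d, Siglech, Il3ra, Cd79a, Pax5, Ptprc, Cd24a, Rag1, Hbb-bs, Hbb-bt, Tfrc and Malat1 were named as background or markers. So were Rag2, Dntt, Vpreb3, Kit, Lef1, Sox4, Erg and Arpp21.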

Additional observations from a re-analysis of the deposited data

Results flagged for a closer look

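Ltb in heterozygous male library 4 was at 325.6 CPM, apart from the other 3 libraries of its group, which lay between 298.6 and 302.7 CPM. It stood out by Dixon's criterion at the 95% level. There were 36 groups of libraries examined in this way, 4 for each of the 9 genes, and chance flags about 1 in 20 of them.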

How the results depend on the processing

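No alternative that was run called any of the 9 genes. The count of genes called in females (34) was 92 with DESeq2 and 58 with all 18 libraries in 1 fit. In males (16) it was 49 with DESeq2 and 7 with the dendritic cell covariate, and for the interaction (0) it was 4 with DESeq2. Leaving out 1 library gave 26 to 41 calls in females and 5 to 22 in males, with 5 without heterozygous library 1 or del/del library 3, 6 without del/del library 1, 9 without heterozygous library 4 and 10 without del/del library 4. The cause was not tested.

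Signs of log2 fold changes turned as follows. In females, voom gave -0.12 for Fcer2a and -0.015 for Cr2. With Malat1 as covariate, Ms4a1 was at -0.016, Fcer2a at -0.68, Cr2 at -0.52, Fcrl1 at -0.036, Cd55 at -0.25 and Klf2 at -0.031. With the cell cycle covariate they were -0.0035, -0.58, -0.53, -0.053, -0.22 and -0.11 in the same order. With the dendritic cell covariate, Fcer2a was at -0.45, Cr2 at -0.37, Cd55 at -0.10 and Klf2 at -0.090. In males, Tnfrsf13c was at -0.0025 with all 18 libraries in 1 fit. With Malat1, Tnfrsf13c was at -0.0060, Cd55 at -0.0050 and Cd40 at -0.028. With the cell cycle covariate, Cr2 was at -0.0047, Tnfrsf13c at -0.0080, Cd55 at -0.020 and Cd40 at -0.011. With the dendritic cell covariate, Ltb was at -0.057, Tnfrsf13c at -0.0018, Cd55 at -0.22 and Cd40 at -0.30. For the interaction, voom gave -0.060 for Cr2. Malat1 gave -0.17 for Fcer2a, -0.11 for Cr2 and -0.13 for Cd55, the cell cycle covariate -0.22 for Fcer2a, -0.26 for Cr2, -0.0021 for Fcrl1 and -0.11 for Cd55, and the dendritic cell covariate -0.075 for Fcer2a and -0.10 for Cr2.

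With 1 library left out, female log2 fold changes ran from -0.29 to 0.26 for Fcer2a, -0.19 to 0.41 for Cr2, -0.036 to 0.37 for Cd55 and -0.061 to 0.12 for Klf2, the lowest each time without del/del library 5. With no change of sign they ran from 0.048 to 0.25 for Ms4a1, 0.14 to 0.48 for Ltb, 0.15 to 0.46 for Fcrl1, 0.067 to 0.15 for Tnfrsf13c and 0.13 to 0.365 for Cd40. Male ones ran from -0.074 to 0.070 for Ms4a1, -0.22 to 0.014 for Fcer2a, -0.0093 to 0.11 for Cr2, -0.018 to 0.087 for Ltb, -0.027 to 0.027 for Tnfrsf13c, -0.075 to 0.16 for Cd55 and -0.080 to 0.14 for Cd40, and from 0.11 to 0.22 for Fcrl1 and 0.060 to 0.22 for Klf2. Of these, Ms4a1, Cr2, Tnfrsf13c, Cd55 and Cd40 were lowest without heterozygous library 2, which left 3 of 9 positive with a median of -0.027. Interaction values ran from -0.19 to 0.35 for Fcer2a, -0.24 to 0.36 for Cr2 and -0.086 to 0.31 for Cd55. The female median was 0.086 without del/del library 5, with 5 of 9 positive.

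The labels give no pairs. Over all genes tested, deviations of a del/del library and the heterozygous library of the nearest animal number correlated at -0.031 to 0.30. Over the 6458 genes with a log2 CPM averaging 5 or more, they correlated at 0.14 to 0.61, above 0.1 in all 9 pairs. Libraries of other animal numbers were not compared in this way, so these values cannot settle whether the animals were pairs. A replicate block of these pairs gave 23 calls in females and 13 in males, with no member called, and turned the sign of Fcer2a in females (-0.11) and of Cr2 in the interaction (-0.0060). In this fit Cd40 in females had an unadjusted p of 0.0158 (edgeR adjusted p = 0.589) and Fcrl1 in males one of 0.0168 (edgeR adjusted p = 0.626). The median SE of the 9 genes was 0.14 with the block and 0.20 without it in females. In males it was 0.067 with the block and 0.10 without it.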
